A study of Rattus norvegicus with 9 samples.

Results

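Interleukin 1 is a cytokine that immune and stromal cells release after tissue injury, and 6 genes that encode its 2 agonist ligands, its antagonist and its receptors were followed here in rat hearts. The genes were taken by name, namely Il1a, Il1b, Il1rn, Il1r1, Il1r2 and Il1rap, wherever a deposited table lists them. All 6 are found among the 5760 genes listed in either of 2 tables. The table of the Cal and model groups lists 5 of them among 4288 genes, the table of the model and sham groups lists 3 among 2458, and 2 of them, Il1b and Il1rn, are in both. Each table holds only genes that had already passed the authors' own test of that comparison, so being listed is no result of the present comparison, and a gene that is not listed has no value here.

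Cardiac RNA of 9 male Sprague Dawley rats was sequenced, 3 per group. The sham (Con) rats underwent surgery in which the left anterior descending coronary artery was not tied, and received distilled water. Heart failure (HF) was induced by tying that artery in the model rats, which also received distilled water, and in the Cal rats, which received the isoflavone calycosin (Cal) by mouth at 80 mg/kg per day. Dosing began 24 h after surgery and lasted 28 days in the 3 groups. The age of the animals and the part of the heart that was sampled are not given in the sources used here, and RNA of whole tissue was measured, so that fewer cells of a type and less RNA per cell cannot be told apart.

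The headings of the sample columns and of the authors' mean columns contradict each other. In the Cal and model table, the average named Cal is that of the 3 columns headed Model in 4288 of 4288 genes, and the reverse holds for the average named Model. The table with the sham group is named for the model and sham groups, yet its sample columns bear the names Cal and Con alone. There the average that bears the name Model matches the Cal columns in 2458 of 2458 genes. A library goes by its own column's heading here, and every direction between Cal and Model below is exchanged if the mean headings are the right ones. By the mean headings, the comparison of the libraries headed Cal with those headed Con is model against sham. The name of that table says the same, so it sides with the mean headings against the sample columns. Measured levels were not used to decide between the headings. Reads on listed genes ranged from 2860826 to 3998471 per library in the first table and from 3270460 to 4659882 in the second, and the full depth is unknown. The identifiers are mouse genes although the animals are rats. Of 12 cardiomyocyte markers, 3 are listed in the model and sham table, among them Myh6, the atrial and fast myosin heavy chain, at 275029 ± 33746 normalized counts in Con libraries and 335145 ± 1036 in Cal libraries (SD, n = 3 each), and 1, Nppa, in the other, so this check of the tissue rests on few genes.

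Interleukin 1α and interleukin 1β bind the same signalling receptor, encoded by Il1r1, which then recruits the accessory chain encoded by Il1rap and passes the signal through MyD88 and the IRAK kinases to NFκB. Interleukin 1β is made as an inactive precursor and is cut by caspase-1 within inflammasomes. The system carries its own brakes. Il1rn encodes a receptor antagonist that occupies the receptor without signalling, and Il1r2 encodes a decoy receptor that binds the ligand but lacks the signalling domain. In the infarcted heart interleukin 1 is known as an early driver of leukocyte recruitment.

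In the coordinates of the deposited annotation, whose build is not stated in the sources used here, both agonist genes lie side by side on mouse chromosome 2. Il1a (ENSMUSG00000027399) runs from 129299610 to 129309972 and Il1b (ENSMUSG00000027398) from 129364570 to 129371139, both on the minus strand with 54598 bases between them. Il1rn (ENSMUSG00000026981) lies on the same chromosome from 24336853 to 24351494 on the plus strand. Il1r2 (ENSMUSG00000026073, 40074079 to 40125231) and Il1r1 (ENSMUSG00000026072, 40225080 to 40317257) are neighbours on the plus strand of chromosome 1, and Il1rap (ENSMUSG00000022514) is on chromosome 16 from 26581704 to 26730117, plus strand. All 6 are protein-coding.

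The 250 bases before the transcription start of the rat genes are shown because Il1b and the other 4 genes listed for the HF groups went in opposite directions. They come from RefSeq on the GRCr8 build, in which 5 of the 6 genes had an entry and Il1r2 had none. The first entry is shown for Il1rap, which has 2. Capitals mark matches to 5 searched motifs, which do not overlap each other in these windows. Il1a is at chr3:136990018-136990267 (minus strand), Il1b at chr3:137036582-137036831 (minus), Il1rn at chr3:27520072-27520321 (plus), Il1r1 at chr9:50034133-50034382 (plus) and Il1rap at chr11:87704343-87704592 (minus), each written 5′ to 3′ on the strand of the gene.
Il1a: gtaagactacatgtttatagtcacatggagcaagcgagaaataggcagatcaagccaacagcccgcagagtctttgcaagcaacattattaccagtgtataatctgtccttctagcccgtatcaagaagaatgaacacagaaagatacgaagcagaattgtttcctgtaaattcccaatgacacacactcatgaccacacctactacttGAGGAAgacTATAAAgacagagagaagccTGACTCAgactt
Il1b: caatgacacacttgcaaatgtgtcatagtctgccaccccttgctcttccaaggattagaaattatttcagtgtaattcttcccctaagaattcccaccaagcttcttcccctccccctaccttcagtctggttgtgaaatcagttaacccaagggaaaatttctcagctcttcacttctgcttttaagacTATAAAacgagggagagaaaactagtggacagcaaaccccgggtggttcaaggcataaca
Il1rn: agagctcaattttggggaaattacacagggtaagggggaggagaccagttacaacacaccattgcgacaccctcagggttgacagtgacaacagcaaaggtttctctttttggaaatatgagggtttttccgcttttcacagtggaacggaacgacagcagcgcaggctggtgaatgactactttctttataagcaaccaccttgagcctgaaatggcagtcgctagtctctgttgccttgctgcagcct
Il1r1: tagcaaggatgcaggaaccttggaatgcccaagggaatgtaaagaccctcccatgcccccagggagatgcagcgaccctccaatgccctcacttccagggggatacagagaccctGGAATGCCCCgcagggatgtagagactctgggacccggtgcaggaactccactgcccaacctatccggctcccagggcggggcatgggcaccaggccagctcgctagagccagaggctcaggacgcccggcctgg
Il1rap: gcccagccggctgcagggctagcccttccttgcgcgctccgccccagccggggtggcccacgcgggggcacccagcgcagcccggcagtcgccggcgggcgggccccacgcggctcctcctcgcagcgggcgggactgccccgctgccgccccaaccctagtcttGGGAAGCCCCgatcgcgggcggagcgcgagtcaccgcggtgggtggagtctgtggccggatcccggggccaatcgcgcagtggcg

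The TATA box, searched as TATAAA on the gene's strand, was found 32 bases before the start of Il1a and 60 bases before that of Il1b, and not in the other 3 windows, against 8.06% of 33469 rat promoter windows of this length. The core of PU.1 (GAGGAA, both strands, 23.3% of windows) was found 41 bases and the AP-1 motif (TGANTCA, both strands, 6.34% of windows) 12 bases before the start of Il1a alone. The NF-kB consensus (both strands, 6.33% of windows) had a match in Il1r1, 135 bases before the start, and in Il1rap, 85 bases before it. The C/EBP motif (TTNNGCAA, both strands, 9.22% of windows) had no match in the 5 windows. A match is a run of letters and not a measured binding site.

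The 2 agonist genes stood far apart between the libraries headed Cal and Con. Il1a had normalized counts (reads divided by a size factor per library) of 394, 227 and 215 in the libraries headed Cal 1 to 3, and of 3.73, 0.982 and 0 in those headed Con 1 to 3. All 3 libraries headed Cal were above all 3 headed Con, in which only 5 reads fell on the gene in total against 824. The ratio was 171, with a 95% interval of 72.9 to 528 that covers counting error only. On the log2(normalized count + 1) scale, on which low genes change by less than their true ratio, the difference was 6.996 (standard error, SE, 0.55, adjusted p = 2.22e-05 from limma), the 8th highest of the 2458 listed genes. The value depended on the pseudocount, being 4.60 with 10 and 8.49 with 0.1.

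Il1b was the most abundant member per length in the libraries headed Cal. In the table with sham its normalized counts were 1769, 1574 and 1483 in the libraries headed Cal 1 to 3 and 11.2, 33.4 and 11.1 in those headed Con 1 to 3. The groups did not overlap, and 1 library headed Con, the second, stood above the other two. The log2 fold change was 6.55 (SE 0.37, adjusted p = 3.55e-06 from limma), the 12th highest in that table. Between the 2 HF groups, Il1b had 1582, 1404 and 1331 in the libraries headed Cal 1 to 3 and 468, 405 and 231 in those headed Model 1 to 3. It was thus higher in every library headed Cal, by 2.02 on the log2 scale (SE 0.26, adjusted p = 0.000623 from limma). By the mean headings, the level of Il1b was lower in the Cal group than in the model group.

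The antagonist gene had the opposite order in the 2 HF groups. Il1rn had normalized counts of 137, 279 and 276 in the libraries headed Cal 1 to 3 and of 1227, 2990 and 2139 in those headed Model 1 to 3. All Model libraries were above all Cal libraries, and the spread within Model was wide, with a coefficient of variation of 41.6%. Il1rn differed by -3.18 on the log2 scale, Cal over Model (SE 0.39, adjusted p = 0.000531 from limma). Against sham it was higher, with 153, 313 and 308 in the libraries headed Cal 1 to 3 and 7.45, 7.86 and 4.05 in those headed Con 1 to 3, a log2 fold change of 5.09 (SE 0.36, adjusted p = 1.22e-05 from limma). Only 20 reads lay behind the level in Con, and the ratio of 39.8 had a counting interval of 25.6 to 65.6.

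**Figure D1:**
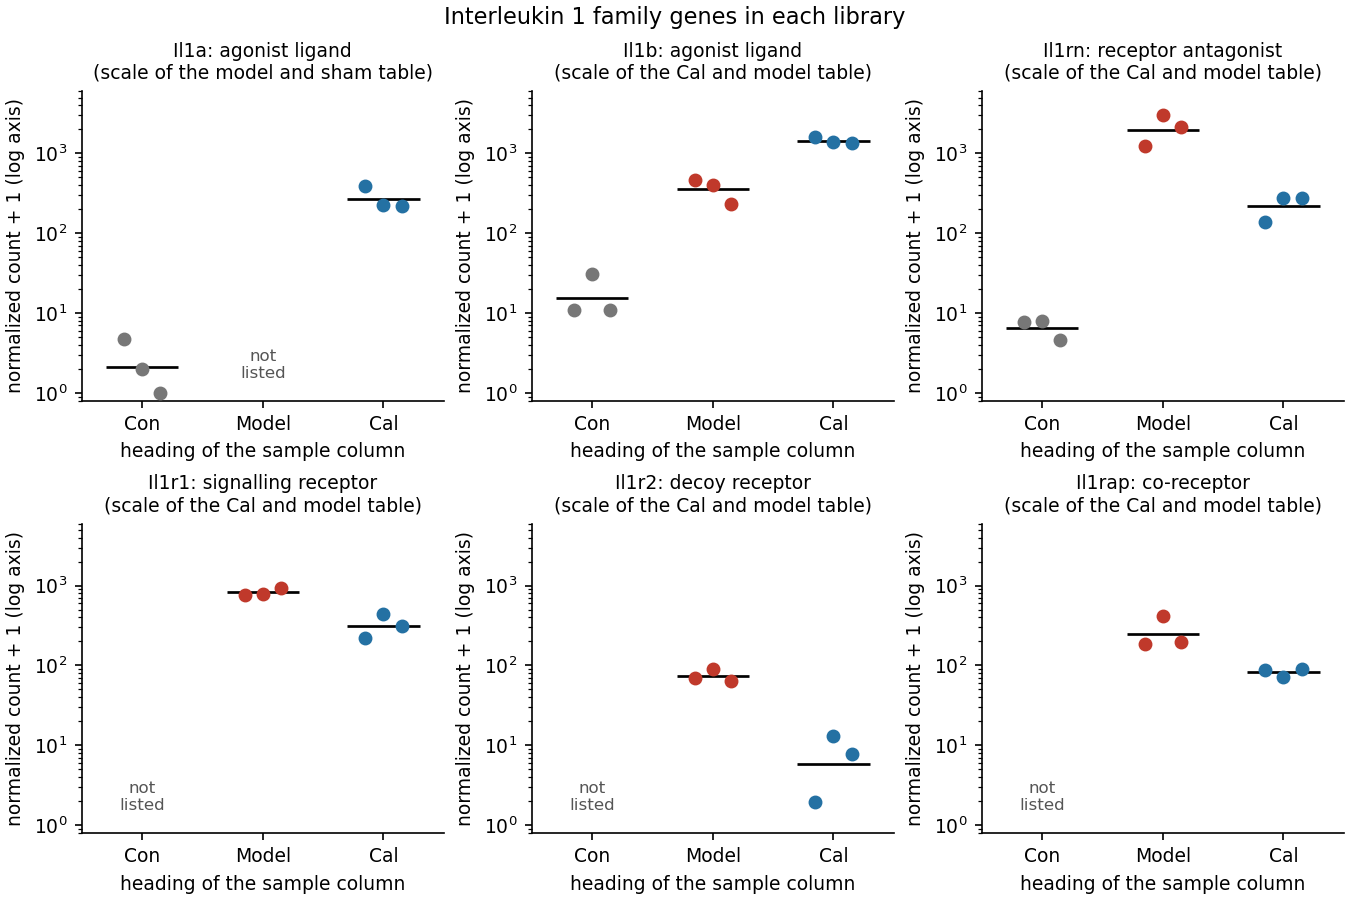
Normalized count + 1 of each gene (log axis) in each library, by the heading of its sample column, where points are libraries 1 to 3 from left to right and lines are means on the log scale. Libraries headed Con are set on the scale of the Cal and model table for Il1b and Il1rn, and Il1b is highest in the libraries headed Cal while Il1rn and the 3 receptor genes are highest in those headed Model.

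The 3 receptor genes have values in the HF groups alone, and all were higher in the libraries headed Model. The signalling receptor gene Il1r1 had 220, 439 and 315 in the libraries headed Cal 1 to 3 and 758, 787 and 936 in those headed Model 1 to 3, with a gap between the groups. The log2 difference, Cal minus Model, was -1.40 (SE 0.25, adjusted p = 0.00208 from limma). The co-receptor gene Il1rap had 85.8, 70.4 and 89.7 against 186, 412 and 198 in the same order, and the second library headed Model was far above the other two. Its log2 fold change was -1.59 (SE 0.32, adjusted p = 0.0031 from limma).

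The decoy receptor gene rested on few reads. Il1r2 had 0.922, 12.2 and 6.83 in the libraries headed Cal 1 to 3 and 68.0, 90.2 and 62.3 in those headed Model 1 to 3. These are 22 and 202 reads in total, a ratio of 10.9 with a counting interval of 7.02 to 17.8. The first library headed Cal, with 1 read, was lowest, and the groups did not overlap. The log2 difference, Cal minus Model, was -3.66 (SE 0.67, adjusted p = 0.00218 from limma). It was -2.86 without Cal 1, -4.25 without Cal 2 and -2.37 with a pseudocount of 10, and passed the test in each case. The mean headings would place the higher Il1rn, Il1r1, Il1r2 and Il1rap in the Cal group.

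**Figure D2:**
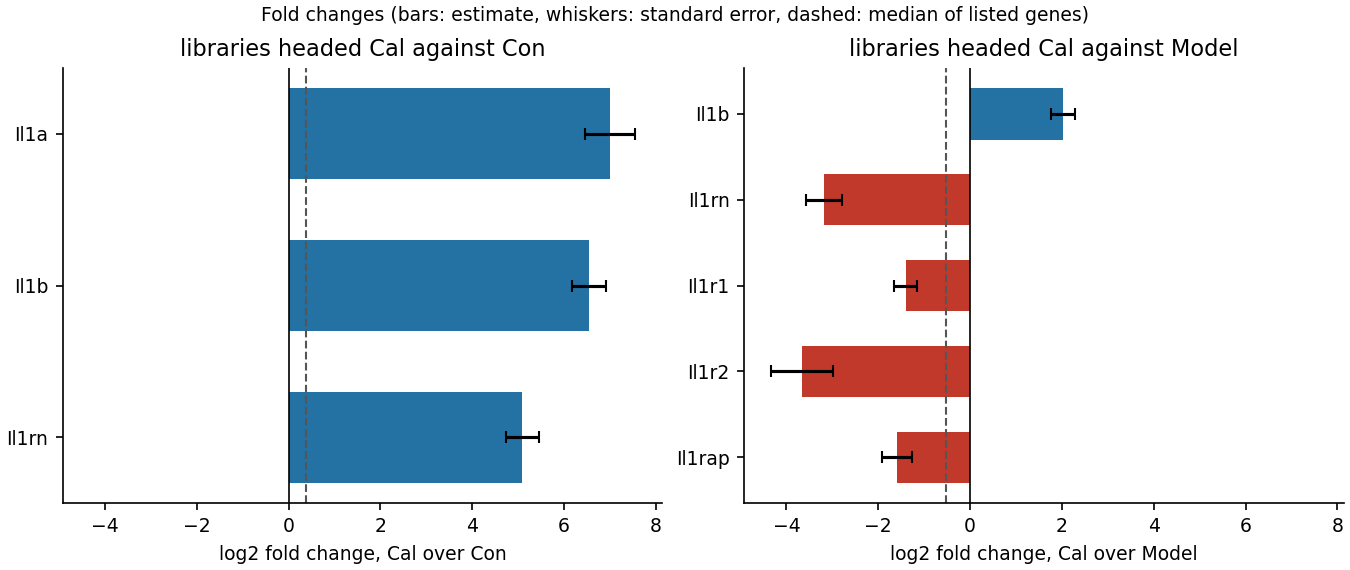
Log2 fold change on the log2(normalized count + 1) scale of Cal libraries over Con (left) or Model (right), with bars for the estimate, whiskers for its SE and a dashed line at the median of all listed genes. The 3 genes on the left are between 5.09 and 6.996, and on the right Il1b alone is above 0.

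To be called, a gene needed a limma adjusted p under 0.05 together with a difference beyond 1 on the log2 scale. The adjustment covers only genes that had already passed the authors' test on the same libraries, so the adjusted p-values are conditional on that selection. By this rule all 5 listed members differed between the Cal and Model libraries, where 60.1% of the listed genes were, with 1 member higher in Cal (28.4% of listed genes) and 4 lower (31.6%). All 3 listed members were called higher in the libraries headed Cal than in those headed Con, against 18.0% of the listed genes and 29.0% in either direction. The groups did not overlap for any of these 8 differences, as for 98.2% and 97.4% of the listed genes of the tables. A two-sided exact permutation test of 3 libraries against 3 cannot give a p under 0.1, and gave 0.1 for each. The median log2 fold change of the listed genes was -0.52 for Cal over Model and 0.37 for Cal over Con. It moved to -0.10 and -0.04 under quantile normalization and to -0.23 and 0.09 under median-ratio scaling, and no member changed direction under either.

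Both tables hold the same libraries headed Cal, with identical reads in 986 of 986 shared genes, which allows the levels of Il1b and Il1rn to be set side by side in 3 groups. The tables were normalized separately, and values in Con were multiplied by 0.894 to stand on the scale of the Cal and model table, so these levels were not tested across tables. Per kilobase of the deposited gene length, Il1b had 8.71 in Con, 193 in Model and 755 in Cal libraries. Il1rn had 1.04, 383 and 41.6 in the same order. The ranges of neighbouring groups did not overlap for either gene. Among the genes listed for the HF groups, the order of levels per kilobase in the libraries headed Cal was Il1b at 755 ± 67.8, Il1r1 at 51.0 ± 17.3, Il1rn at 41.6 ± 14.7, Il1rap at 7.21 ± 0.897 and Il1r2 at 3.49 ± 2.96 (SD, n = 3 each). In those headed Model it was Il1rn at 383 ± 159, Il1b at 193 ± 64.3, Il1r1 at 130 ± 15.1, Il1r2 at 38.5 ± 7.74 and Il1rap at 23.4 ± 11.2. In Cal the levels of Il1r1 and Il1rn overlapped, as did those of Il1rap and Il1r2, and in Model those of Il1b and Il1r1, of Il1rn and Il1b, and of Il1r2 and Il1rap did. The deposited length of Il1rn, 5535 bases, is far above that of Il1b, 1907 bases, and the ratio of their levels depends on it.

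The ratio of antagonist to ligand within a library does not depend on how libraries were scaled, apart from the pseudocount. The log2 ratio of Il1rn over Il1b per kilobase was -5.06, -3.87 and -3.80 in the libraries headed Cal 1 to 3, -0.15, 1.34 and 1.67 in those headed Model 1 to 3. In the libraries headed Con 1 to 3 it was -2.06, -3.49 and -2.80. Per kilobase, Il1b was thus 14.0 to 33.4 times the level of its antagonist in the libraries headed Cal and 4.18 to 11.3 times in those headed Con, while in 2 of 3 libraries headed Model the antagonist was higher. Without division by length, Il1rn was above Il1b in all 3 libraries headed Model, with log2 ratios of 1.39, 2.88 and 3.21. The ratios in Con rest on 20 reads of Il1rn. No groups overlapped. The difference of the means was -5.20 on the log2 scale for Cal minus Model, which is 36.7-fold, -1.46 for Cal minus Con, which is 2.75-fold, and 3.74 for Model minus Con, which is 13.4-fold. Each of these comparisons gave p = 0.1 in a two-sided exact permutation test (n = 3 each), the smallest p possible, and an adjusted p = 0.125 over 5 ratio comparisons. With the mean headings, the group with the highest ratio of antagonist to ligand is Cal and that with the lowest is model.

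The decoy receptor was also set against the signalling receptor within each library. The log2 ratio of Il1r2 over Il1r1 per kilobase was -5.10, -3.32 and -3.60 in the libraries headed Cal 1 to 3 and -1.72, -1.37 and -2.15 in those headed Model 1 to 3. The groups did not overlap, and the ratio was 4.79-fold lower in Cal, a log2 difference of -2.26 (two-sided exact permutation test, p = 0.1, n = 3 each, adjusted p = 0.125). The difference was -1.001 with a pseudocount of 10. For the pair of agonists the groups were not separated. The log2 ratio of Il1a over Il1b per kilobase was -2.21, -2.84 and -2.83 in the libraries headed Cal 1 to 3 and -1.42, -4.17 and -3.65 in those headed Con 1 to 3. These groups overlapped (two-sided exact permutation test, p = 0.6, n = 3 each), the ratio in Con rests on 5 reads of Il1a, and the sign of the difference of 0.45 changed with a pseudocount of 10 and without the second library headed Con.

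**Figure D3:**
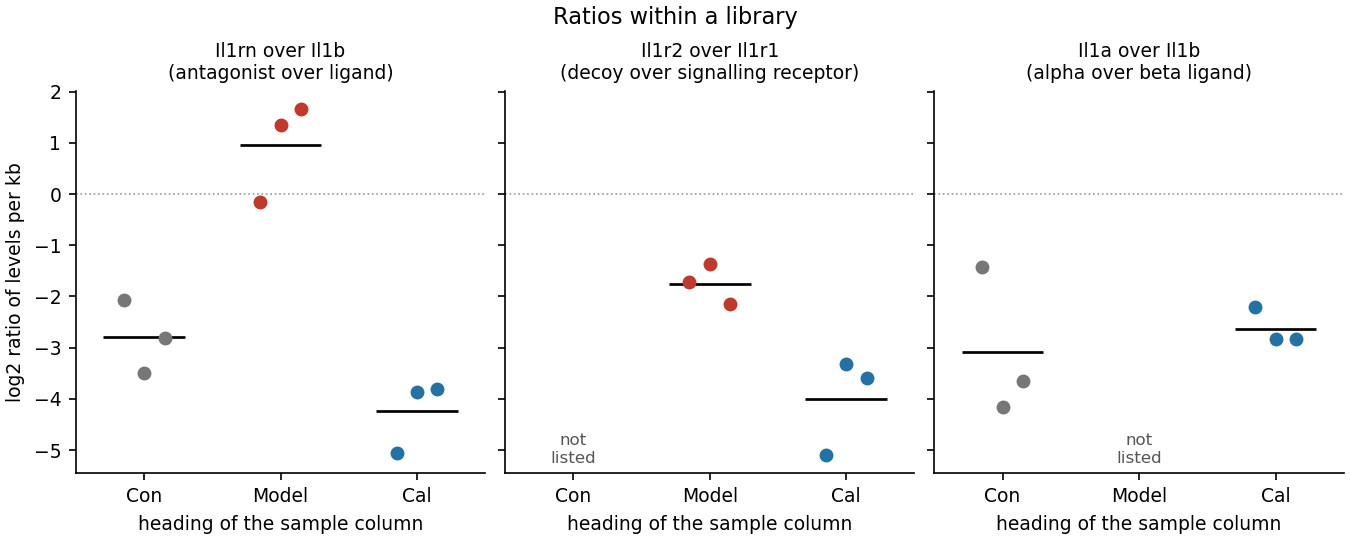
Log2 ratio of levels per kilobase between a pair of genes within each library, by heading, where points are libraries 1 to 3 from left to right, lines are means and the dotted line marks equal levels. Il1rn over Il1b lies between -0.15 and 1.67 in the libraries headed Model, above all libraries headed Con and Cal, and Il1a over Il1b overlaps between Cal and Con.

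Within the libraries headed Cal, the first had the highest Il1a and Il1b and the lowest Il1rn, Il1r1 and Il1r2. Within those headed Model, the second had the highest Il1rn, Il1r2 and Il1rap, and the third the lowest Il1b and the highest Il1r1. Across the 6 libraries of the Cal and model table, the log2 level of Il1r1 had a correlation of 0.979 with that of Il1r2, 0.951 with Il1rn, 0.778 with Il1rap and -0.929 with Il1b. These libraries form 2 separate groups, and points share their library and size factor. In the comparisons with other genes below, the libraries also form separate groups, and every gene was listed for a difference between them. A high r there need not mean shared regulation, which was not tested. Over 9 libraries and 985 other genes listed in both tables, the genes most like Il1b were Bcl10 (r = 0.993), an adaptor of NFκB signalling, Gpr132 (r = 0.989), a G protein-coupled receptor, and Nlrp3 (r = 0.984), the sensor of an inflammasome. Those most like Il1rn were Csf3 (r = 0.997), which encodes the neutrophil growth factor G-CSF, Ttpal (r = 0.997) and Slc41a2 (r = 0.996), and the correlation between Il1rn and Il1b themselves was 0.747. Among 2457 other genes in 6 libraries of the model and sham table, Ddx21, Tnf and Slc25a25 (r = 0.996 each) were most like Il1a. In the 6 libraries of the other table, those most like Il1r1 were Angptl4, Rhobtb1 and 1200007C13Rik (r = 0.994 each), those most like Il1r2 were Cyp1b1, Trpv4 and Elac2 (r of 0.998, 0.996 and 0.996), and those most like Il1rap were Carmil1 and Gm5796 (r of 0.998 and 0.997).

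The receptor neighbourhood on chromosome 1 holds 2 other listed receptor genes of the family. Il1rl2, which encodes the interleukin 36 receptor and starts 7353 bases after Il1r1 ends, had a log2 difference, Cal minus Model, of -1.36 (adjusted p = 0.00338 from limma). Il18rap, the accessory chain of the interleukin 18 receptor, lies 198105 bases from Il1r1 and had -2.94 (adjusted p = 0.00275 from limma). Next to the ligand genes within 500 kb, the genes listed for the HF groups other than Il1b were Tmem87b, Sirpa and Ttl, with log2 fold changes of -0.81, 0.80 and 0.53.

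Other genes of the family and its pathway were counted by lists. For every list below, the share of all listed genes called in Cal against Model was 28.4% higher and 31.6% lower. Against Con these shares were 18.0% and 10.9%. By the mean headings, each direction between Cal and Model in these lists is exchanged. Of 8 other interleukin 1 family ligands, 2 are listed for the HF groups and both were called lower in the libraries headed Cal than in those headed Model. Il33, an alarmin of stromal cells, had 91.4 ± 13.0 in Cal and 741 ± 181 in Model (SD, n = 3 each, log2 fold change -2.99, adjusted p = 0.000133 from limma), and Il18, a second substrate of caspase-1, had a log2 fold change of -2.26 (adjusted p = 0.00501 from limma). Of 8 other receptors and binding proteins 4 are listed, and 3 were called lower in Cal and 1 higher. Il18bp, the soluble inhibitor of interleukin 18, had 147 ± 42.2 in Cal and 1108 ± 302 in Model (SD, n = 3 each, log2 fold change -2.91, adjusted p = 0.000242 from limma). Sigirr, a receptor that restrains interleukin 1 signalling, was the one called higher in Cal, at 1.83 (adjusted p = 0.00188 from limma). Against Con, Sigirr is the only listed gene of these lists, and its log2 fold change of -0.94 was short of the limit of 1 but passed it without the first library headed Cal (-1.13), without the first headed Con (-1.17) and under median-ratio scaling (-1.22).

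Of 25 genes of the signalling chain below the receptor, 8 are listed in each table. Between Cal and Model, 2 were called lower and 1 higher in Cal, with a median of -0.58 near that of all listed genes. Irak3, which encodes the kinase-like inhibitor IRAK-M, had 196 ± 64.3 in Cal and 1787 ± 399 in Model (SD, n = 3 each, log2 fold change -3.21, adjusted p = 0.000195 from limma). Myd88, the adaptor, had -1.63 (adjusted p = 0.000851 from limma) and Map2k6, a kinase of p38, had 1.99 (adjusted p = 0.00199 from limma). Against Con, 3 were called, all higher in Cal, and the median was 0.82. These were Map3k8 at 2.62 (adjusted p = 9.96e-05), Irak2 at 2.39 (adjusted p = 1.67e-05) and Myd88 at 1.21 (adjusted p = 0.000622, limma each), and Myd88 fell under the fold change limit with the other scalings, at 0.94 and 0.93.

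Of 22 genes of interleukin 1 maturation, 11 are listed for the HF groups. Among them 9 were called lower and 1 higher in Cal libraries, against 31.6% and 28.4% of all listed genes, with a median of -1.63. The lowest log2 fold changes were those of Casp4 at -2.29 (adjusted p = 0.00122), Casp1 at -1.97 (adjusted p = 0.00147) and Casp8 at -1.87 (adjusted p = 0.000599, limma each). Nlrp3 was the gene called higher, at 1.201 (adjusted p = 0.00588 from limma), with 691 ± 156 in Cal and 308 ± 101 in Model (SD, n = 3 each), and without the library headed Model 3 no gene of the list was called higher. Against Con 4 are listed. Nlrp3 had 773 ± 175 in Cal and 15.8 ± 3.33 in Con (SD, n = 3 each), which differ by 5.52 on the log2 scale (adjusted p = 8.28e-07 from limma), Casp4 was also called higher, at 2.93 (adjusted p = 2.07e-05 from limma), and P2rx7, the ATP-gated channel that triggers the Nlrp3 inflammasome, was called lower, at -1.33 (adjusted p = 0.00198 from limma).

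Genes known to respond to interleukin 1 were split by comparison. All 24 on the list are listed against Con, and 22 were called higher in Cal libraries, against 18.0% of all listed genes. The median of the list was 5.39, beside 0.37 for all listed genes. The list was chosen with earlier results of these data known. Its counts are therefore no independent sign of a response to interleukin 1, which was not tested. Cxcl2 and Cxcl1, which encode neutrophil chemokines, had log2 fold changes of 9.67 and 8.89 (adjusted p = 6.6e-07 from limma each). Il6, which had 1 read in all libraries headed Con and 1539 in those headed Cal, had a ratio of 1596 with a counting interval of 286 to 63069. Csf2 and Csf3 had no read in Con and were at least 57.7-fold and 141-fold higher in Cal, against a floor of 3 reads over the group. Between Cal and Model 13 are listed, with a median of -2.08. Of these, 9 were called lower in Cal and 3 higher, against 31.6% and 28.4% of all listed genes. The 3 higher genes were Sele at 2.13, Cxcl2 at 1.59 and Cxcl1 at 1.46 (adjusted p of 0.000539, 0.0014 and 0.00213 from limma). The lowest log2 fold changes were those of Saa3 at -8.82, Lcn2 at -6.77 and Csf3 at -4.09 (adjusted p of 7.65e-05, 7.65e-05 and 0.000593 from limma).

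**Figure D4:**
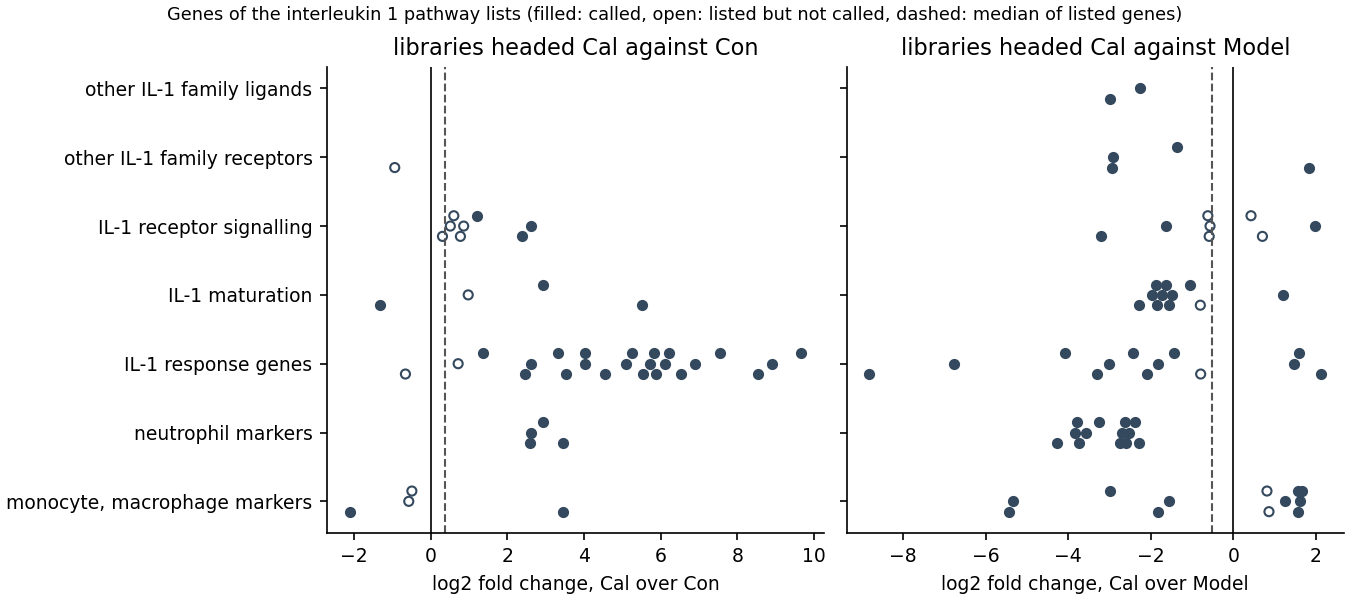
Log2 fold change of each listed gene of 7 lists for Cal libraries over Con (left) or Model (right), with filled points for called genes, open points for listed genes that were not called and a dashed line at the median of all listed genes. Of the response genes, 22 of 24 are called higher against Con (18.0% of all listed genes), while against Model 9 of 13 are called lower (31.6%).

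Neutrophil markers differed between the same groups. Of 16 neutrophil markers, 13 are listed for the HF groups. All 13 were called lower in the libraries headed Cal, against 31.6% of all listed genes, with a median of -2.74. Their summed normalized count was 113, 235 and 295 in the libraries headed Cal 1 to 3 and 1658, 1709 and 1567 in those headed Model 1 to 3. The first library headed Cal was lowest in these markers as in Il1rn, Il1r1 and Il1r2, but not in Il1rap, which was lowest in the second. A link between them was not tested. Mpo had no read in Cal. The lowest log2 fold changes, Cal over Model, were Ngp at -4.26, Fpr2 at -3.83 and Mmp8 at -3.79. Against Con 4 are listed and all were called higher in Cal, Fpr1 (1 read in Con, 46 in Cal), Fpr2 and S100a8 the most, and their sum was 77.4 to 229 in Cal and 16.8 to 29.5 in Con.

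Of 17 monocyte and macrophage markers, 12 are listed for the HF groups, 5 called higher and 5 lower in Cal. Their summed normalized count was higher in Cal, at 8798 to 9948 against 4195 to 5836 in Model. Lyz2 made up much of this sum, with means of 3930 in Cal and 1674 in Model. The 5 called higher were Cd163 at 1.66, C1qc at 1.62, Csf1r and C1qa at 1.56 each and Lyz2 at 1.26. Among the 5 called lower, Chil3, Ly6c2 and Fcgr1 had log2 differences of -5.42, -5.33 and -2.99. Against Con 4 are listed, 1 called higher (Cd14 at 3.44) and 1 lower (Ccr2 at -2.11), with sums of 2187 to 2905 in Cal and 1340 to 1541 in Con. Of 10 endothelial markers 8 are listed in each table, 5 called higher in Cal than in Model (8 under quantile normalization), with sums of 12512 to 14885 and 5063 to 6770, and 1 called higher and 2 lower than in Con. Of 10 fibroblast markers 5 are listed in each table, with 2 called higher than in Model and 1 lower than in Con. In the fibroblast list the count of 2 became 1 without the library headed Cal 1, Cal 3 or Model 1 and 4 under quantile normalization, and the count of 1 against Con became 2 without Cal 3 or Con 3 and 3 under quantile normalization or median-ratio scaling. The endothelial count of 2 against Con became 0 without the library headed Cal 2 and 1 without Con 2, and the count of 1 became 0 under quantile normalization. None of 11 lymphocyte markers is listed. The part of these markers in the levels of the interleukin 1 genes was not tested.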

How the data were processed

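RNA-seq of 9 rat hearts was analysed, 3 libraries per group. According to the study's methods, the authors aligned paired-end reads to a rat reference, tallied them by gene and ran DESeq2. The submitters' processing notes name Bowtie 0.12.2, mm8 and mm9 without a role, while the tables use mouse Ensembl identifiers. Each deposited value is a signal, namely reads over a size factor that the authors computed for every library, separately by table. This factor was recovered as 1 over the smallest value above 0 in each column, taking that value to be 1 read. Multiplied by it, 100% of the values gave whole reads (within 0.01 of a whole number). Read totals and counting intervals rest on this assumption. The tables also hold the authors' group means, fold changes and p-values. The means served only to check headings, and the fold changes and p-values were not used. No column of another sample was present. The chi-square per degree of freedom between replicate libraries was at least 10.9, where sampling noise alone gives about 1, and none was a duplicate.

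Genes were tested with limma 3.58.1 in R 4.3.3 (trended prior variance) on log2(normalized count + 1) within each table, with Benjamini-Hochberg adjustment over all listed genes. Single values were compared by exact permutation tests in scipy 1.17.1. Fits were repeated with edgeR 4.0.16 and DESeq2 1.42.0 on recovered reads, median-ratio scaling, quantile normalization, pseudocounts of 10 and 0.1, a minimum mean of 10, a block for the replicate number, and without each library in turn. The design assumed normalized values, which these are. The scripts were tested on simulated data. Besides the 6 members, each list's 3 largest log2 fold changes per table and the 3 genes most correlated with each member were named, except 1 gene alike to Il1rap that is not reported here. Neighbouring genes, and further list genes that make up a count of 5 or fewer, were chosen after their values were seen. The members and lists were chosen with earlier results of these data known. Replicates are separate animals by the study's methods. Intervals on counts cover counting error only.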

Additional observations from a re-analysis of the deposited data

How the results depend on the processing

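All 8 differences of the 6 members kept their direction and their call in each of 112 refits, with adjusted p-values of at most 0.0118. These genes had already passed the authors' test on the same libraries. The refits show how far the values depend on processing and are no independent evidence for the differences. The number of genes called was 2575 between the libraries headed Cal and Model (2182 to 2704 over the alternatives) and 712 between those headed Cal and Con (602 to 789). Of called genes, 47.3% were higher in Cal than in Model, and 54.2% with quantile normalization or 61.1% with median-ratio scaling. Against Con the shares were 62.2%, 47.3% and 43.3%. The ratio of Il1a to Il1b between Cal and Con, 0.45 on the log2 scale, was -1.31 with a pseudocount of 10 and 1.86 with 0.1, and ran from -0.093 without the second library headed Con to 1.28 without the first. The other ratios kept their sign, within -5.75 to -4.79 and -1.94 to -1.05 for Il1rn over Il1b in Cal against Model and Con, and 3.18 to 4.29 in Model against Con. Of 52 named list genes, Ryr2 against Con reversed under quantile normalization, to -0.032 (adjusted p = 0.622 from limma). Of all 468 refits of these genes 444 kept their direction and call, and 21 of 342 counts over lists moved, most of them counts of 1 or 2. The replicate numbers belong to different animals, and same-numbered libraries did not deviate together (correlations of -0.14 to 0.11). With the number as a block, 2574 and 713 genes were called, and no call of a member changed. Low counts limit Il1a and Il1rn in Con and Il1r2 in Cal.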
